A study of Mus musculus with 20 samples.

Results

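Transcripts of 8 genes of the activin, inhibin and follistatin system were followed in the livers of mice fed a control diet or CDAHFD: the 4 activin beta subunit genes Inhba, Inhbb, Inhbc and Inhbe, the inhibin alpha subunit gene Inha, and Fst, Fstl3 and Fstl1. The genes were taken by symbol from the deposited table of gene FPKM, which lists 38924 genes, and all 8 were found. FPKM is fragments scaled by gene length and by the fragments of the library, so levels can be set side by side between genes. Each of the 4 groups held 5 male mice, bought at 5 weeks of age, kept for 1 week and then fed for 12 weeks: NDWT were C57BL/6J mice on the control diet, NDKO were whole-body TSP-1 knockout (TSP-1 null) mice on the same diet, HFWT were C57BL/6J mice on CDAHFD and HFKO were TSP-1 null mice on CDAHFD. CDAHFD is an amino acid-defined high fat diet without choline that is used to produce steatohepatitis and fibrosis. The WT mice are not stated to be littermates of the null mice, so the genotype and the stock cannot be told apart, and the lobe sampled is given as right medial in the series text and right lateral in the methods.

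Activins are secreted dimers of beta subunits that belong to the TGF-β superfamily. They bind type II receptors, which recruit type I receptors, and the signal passes through SMAD2 and SMAD3 to the nucleus. Pairing of a beta subunit with the alpha subunit gives inhibin, which opposes activin, and follistatin (Fst) and the related Fstl3 bind activins and block their access to receptors. In the liver, Inhbc and Inhbe are the subunits for which hepatocytes are the best known source, whereas activin A, the dimer of the Inhba product, has been linked to inflammation and fibrosis.

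Libraries held 15641545 to 23276322 fragments assigned to genes, and the 20 livers carried hepatocyte markers at a summed level of 25330 to 44610 FPKM, with none of the 7 markers at 0. The targeted gene Thbs1 (chromosome 2, 118111876 to 118127133, GRCm38) ran against the labels on the control diet, at 0.986 to 1.90 FPKM in the livers labelled TSP-1 null and 0.0580 to 0.326 FPKM in those labelled WT. On CDAHFD it was 3.05 to 4.40 FPKM in the livers labelled TSP-1 null and 3.46 to 6.10 FPKM in those labelled WT. Gene values do not show which exons were read, so a transcript of the disrupted allele cannot be told apart from an intact one. Every genotype difference below is therefore one between labels. None of the 8 genes lies on chromosome 2. In the plot of FPKM by liver the 4 groups of each gene are shown.

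**Figure D1:**
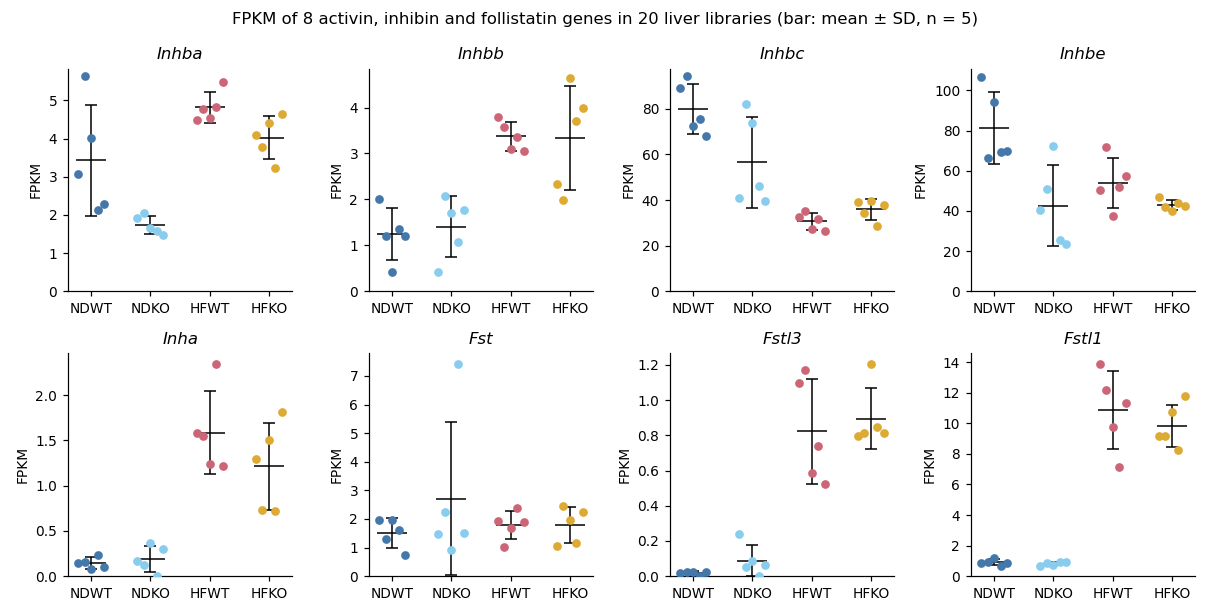
FPKM (y axis, linear, from 0, separate scale per gene) of the 8 genes in each liver by group (x axis). Points are livers and bars are the mean ± SD over 5 mice. Inhbc and Inhbe lie highest and are lower in HFWT than in NDWT on average, while Inha, Fstl3 and Fstl1 are higher in every CDAHFD liver than in any control diet liver (56.2% of all genes tested did not overlap between diets in WT and 57.8% in the null mice).

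Diet was the main source of difference. In the WT comparison of CDAHFD with the control diet, 4 of the 8 genes rose (Inhbb, Inha, Fstl3 and Fstl1) and 2 fell (Inhbc and Inhbe). Among all 14524 genes tested, 44.1% were called higher and 4.62% lower in that comparison. In livers labelled TSP-1 null (the null mice below), 5 rose (the same 4 and Inhba) and 1 fell (Inhbc), against 41.9% and 4.00% of all genes tested. A call is a limma FDR (Benjamini-Hochberg, two-sided) under 0.05 with an absolute log2FC above 0.58. The 4 of 8 that rose in WT are a share near that background. In WT the median log2FC was 0.53 over all genes tested and 1.04 over the 8 genes, and in the null mice it was 0.50 and 1.22. Both the counts and the medians of the 8 genes include Inha and Fstl3. These 2 passed the filter on low values only through their CDAHFD livers, so their rise was favoured in advance. Both lie above the median of the 8, which is thus no evidence of a shift of the family.

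How the libraries are scaled to each other decided much of this balance. With FPKM as deposited, 6412 genes were called higher and 671 lower in WT, against 3351 and 2145 after scaling by median of ratios, which brought the median log2FC of all genes to 0.013, and 2738 and 2359 after quantile normalization. In the null mice the counts were 6088 and 581, 3283 and 1921, and 2690 and 1993. The members held 4 higher and 2 lower in WT under median of ratios and 3 and 2 under quantile normalization, and in the null mice 4 and 1, and 3 and 2. Fstl1, Fstl3 and Inha were called higher and Inhbc lower in both genotypes under each scaling. Inhbe was lower in WT under each, while the calls of Inhbb and Inhba depended on the scaling. Set against the median of all genes, the log2FC in WT was 2.91 for Fstl1, 2.39 for Fstl3, 2.25 for Inha, 0.97 for Inhbb, 0.037 for Inhba, -0.28 for Fst, -1.13 for Inhbe and -1.91 for Inhbc. In the null mice the same values were 2.93, 2.01, 1.79, 0.78, 0.67, -0.76, -0.35 and -1.09. Inha and Fstl3 passed the filter of 0.5 FPKM in at least 5 libraries only through their CDAHFD livers, so that they had to differ between diets to be tested. Of all 14524 genes tested, 2407 had fewer than 5 control diet livers above it. Separation of the diets was common: 56.2% of all genes tested had no overlap between NDWT and HFWT livers, and 57.8% none between NDKO and HFKO livers, so a lack of overlap is not particular to a member below.

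**Figure D2:**
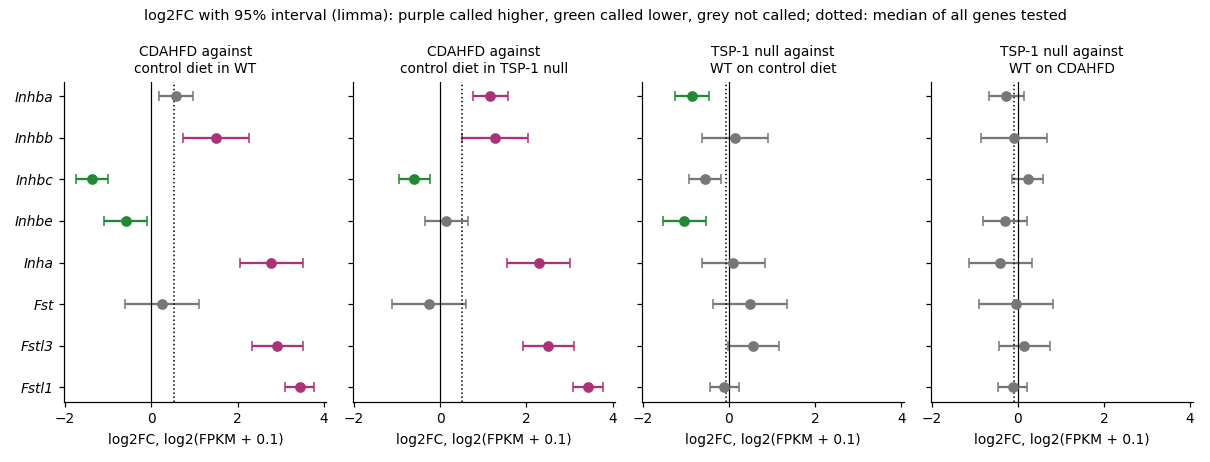
log2FC on the log2(FPKM + 0.1) scale (x axis) of the 8 genes in the 4 comparisons (panels), with 95% intervals from limma. Purple points were called higher, green lower and grey not called, the dotted line is the median of all 14524 genes tested, and no member was called in the comparison of genotypes on CDAHFD.

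Inhbc and Inhbe encode the beta C and beta E subunits of activin C and activin E. They are neighbours on the minus strand of chromosome 10 (GRCm38), Inhbe (ENSMUSG00000047492.4) at 127349402 to 127351772 and Inhbc (ENSMUSG00000025405.8) at 127356328 to 127370544, with a gap of 4555 bases. They were by far the most abundant members, ranking 661 (Inhbe) and 676 (Inhbc) of all genes by mean FPKM in NDWT. Both were called lower in WT on CDAHFD, so the RefSeq promoter windows of the pair (GRCm38.p6, 250 bases before to 50 after the start, on the strand of the gene) are shown for comparison, with the only motif match in capitals, Inhbc at chr10:127370499-127370798 and Inhbe at chr10:127351799-127352098.
Inhbc: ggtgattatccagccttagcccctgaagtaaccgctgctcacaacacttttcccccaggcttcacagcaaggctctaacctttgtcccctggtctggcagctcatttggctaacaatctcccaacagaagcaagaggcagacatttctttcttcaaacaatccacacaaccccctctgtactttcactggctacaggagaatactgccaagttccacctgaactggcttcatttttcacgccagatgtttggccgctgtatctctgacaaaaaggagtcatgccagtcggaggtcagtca
Inhbe: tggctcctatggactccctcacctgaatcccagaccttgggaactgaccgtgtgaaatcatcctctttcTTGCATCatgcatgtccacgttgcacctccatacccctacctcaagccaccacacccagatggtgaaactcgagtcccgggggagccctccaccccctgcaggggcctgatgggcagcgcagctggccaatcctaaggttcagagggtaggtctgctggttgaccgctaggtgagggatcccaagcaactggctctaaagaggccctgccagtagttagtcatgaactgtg
Both strands were searched for TTGCATC (the core of a composite C/EBP and ATF element), TGTTTAC (forkhead factors), CACGTG (E-box) and TGANTCA (AP-1). The Inhbe window held TTGCATC with its first base at -181 from the RefSeq start, and the Inhbc window held none of the 4. The RefSeq start of Inhbe lies upstream of the gene as listed in the deposited values, whose upstream end is at 127351772. The whole Inhbe window thus lies outside the gene as listed. Among 32817 promoter windows of this length, 2.53% held TTGCATC, 3.65% TGTTTAC, 7.15% CACGTG and 7.81% TGANTCA. Of the 8 genes, 7 had a window, and the other 6 held no match. These are letters in a window and no record of binding.

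Inhbc was 88.9, 94.2, 72.4, 75.7 and 68.2 FPKM in the 5 NDWT livers and 32.7, 35.1, 27.4, 31.5 and 26.5 FPKM in the 5 HFWT livers. The highest HFWT liver thus lay well below the lowest NDWT liver. In WT, Inhbc fell by 1.38 on the log2 scale (SE 0.17, FDR 7.86e-07). In NDKO it was 40.8, 82.3, 73.7, 46.3 and 39.8 FPKM, so that mice 2 and 3 were level with NDWT while mice 1, 4 and 5 were lower, and in HFKO it was 39.3, 34.1, 39.6, 28.7 and 37.6 FPKM. Every HFKO liver lay below every NDKO liver, with NDKO mouse 5 next to the highest HFKO liver (39.8 against 39.6 FPKM), and the fall was 0.60 on the log2 scale (SE 0.17, FDR 0.00470). That value lies just past the log2FC threshold, which it missed without NDKO mouse 2 (-0.44), NDKO mouse 3 (-0.48) or HFKO mouse 4 (-0.52). In bulk liver, fewer cells of a type and less RNA per cell cannot be told apart. Of the 7 hepatocyte markers, 2 were called lower in WT (Serpina1c and Tat) and 3 in the null mice. Over all genes tested, 4.62% and 4.00% were called lower. The marker counts were 7 and 5 after median of ratios scaling, where 2145 and 1921 of all 14524 genes were called lower. They were 1 and 2 after quantile normalization, where 2359 and 1993 genes were. Summed marker levels were 33404 to 40862 FPKM in NDWT, 25330 to 36868 in HFWT, 37288 to 44489 in NDKO and 33613 to 44610 in HFKO. The part of these markers in the result was not tested.

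Inhbe was 107, 66.2, 94.3, 69.6 and 69.8 FPKM in NDWT and 50.6, 71.9, 37.7, 51.9 and 57.3 FPKM in HFWT. HFWT mouse 2 overlapped the NDWT range and the other 4 HFWT livers lay below it. In WT Inhbe fell by 0.60 on the log2 scale (SE 0.24, FDR 0.0325), a call that was lost with no filter on low values (FDR 0.0508) and without NDWT mouse 1 or 3 or HFWT mouse 1, 3 or 4 (FDR from 0.0517 to 0.0952). In NDKO it was 40.6, 51.1, 72.5, 25.4 and 23.4 FPKM, with mice 4 and 5 lowest of all 20 livers, and in HFKO it was a narrow 46.9, 41.8, 40.0, 44.1 and 42.6 FPKM. The null groups differed by a log2FC of 0.14 (95% interval -0.36 to 0.65, FDR 0.606), with the HFKO livers inside the NDKO range. Under median of ratios scaling the null difference was -0.38 and under quantile normalization -0.045.

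Inhba encodes the beta A subunit of activin A (ENSMUSG00000041324.7, chromosome 13, 16011851 to 16027211, plus strand, GRCm38). It was 3.08, 5.63, 4.03, 2.12 and 2.28 FPKM in NDWT and 4.48, 4.77, 4.53, 4.84 and 5.49 FPKM in HFWT. NDWT mouse 2 was the highest of all 20 livers, and the groups overlapped through it. The log2FC in WT was 0.57 (SE 0.19, FDR 0.0118), short of the log2FC threshold. It was called with a pseudocount of 0.01 (0.58), with voom (0.60) and without NDWT mouse 2 (0.77) or 3 (0.65) or HFWT mouse 1 or 3. Under quantile normalization it was -0.13 (FDR 0.560), and set against the median of all genes tested it was 0.037, so a rise in WT depends on the scaling. In NDKO it was 1.93, 2.05, 1.65, 1.58 and 1.47 FPKM, and in HFKO it was 4.10, 3.78, 4.41, 3.22 and 4.64 FPKM, with no overlap. In the null mice Inhba rose with a log2FC of 1.17 (SE 0.19, FDR 2.08e-05), of 0.67 under median of ratios scaling (FDR 0.00459) and of 0.44 under quantile normalization (FDR 0.0398), the last short of the log2FC threshold.

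Inhbb encodes the beta B subunit of activin B (ENSMUSG00000037035.5, chromosome 1, 119415465 to 119422248, minus strand, GRCm38). It was 2.01, 1.21, 0.409, 1.36 and 1.21 FPKM in NDWT and 3.80, 3.57, 3.10, 3.36 and 3.05 FPKM in HFWT. All HFWT livers lay above all NDWT livers, as 56.2% of genes tested did not overlap there, and Inhbb rose with a log2FC of 1.51 (SE 0.37, FDR 0.00110). Among the NDKO livers it was 0.410, 2.08, 1.70, 1.07 and 1.78 FPKM and in HFKO 2.33, 1.98, 4.64, 3.71 and 4.00 FPKM. HFKO mouse 2 lay below NDKO mouse 2, and the rise had a log2FC of 1.28 (SE 0.37, FDR 0.00408). Scaling between libraries bore on these calls: quantile normalization gave 0.66 (FDR 0.123) in WT and 0.51 (FDR 0.233) in the null mice, and median of ratios gave 0.99 (FDR 0.0248) in WT and 0.79 (FDR 0.0707) in the null mice.

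Inha encodes the alpha subunit that turns activin subunits into inhibins (ENSMUSG00000032968.4, chromosome 1, 75507077 to 75510366, plus strand, GRCm38). On the control diet it was barely read, at 0.146, 0.162, 0.0760, 0.237 and 0.102 FPKM in NDWT (20 fragments in all) and 0.164, 0.119, 0.363, 0 and 0.302 FPKM in NDKO (28 fragments in all). In HFWT it was 1.59, 1.55, 1.24, 2.35 and 1.22 FPKM and in HFKO 1.29, 0.737, 1.51, 0.720 and 1.81 FPKM. Every CDAHFD liver was above every control diet liver, where 56.2% (WT) and 57.8% (null mice) of all genes tested did not overlap. The log2FC was 2.78 in WT (SE 0.35, FDR 7.43e-07) and 2.28 in the null mice (SE 0.35, FDR 9.50e-06), and its size depends on the pseudocount. Summed fragments, scaled by library totals, gave a ratio of 11.2 in WT (95% interval 7.06 to 18.6) and 6.35 in the null mice (4.24 to 9.84), where the intervals cover counting error only.

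Fstl1 encodes a secreted glycoprotein that carries a follistatin domain (ENSMUSG00000022816.5, chromosome 16, 37776873 to 37836514, plus strand, GRCm38). It was 0.874, 0.927, 1.21, 0.652 and 0.836 FPKM in NDWT and 13.9, 12.2, 9.79, 7.12 and 11.3 FPKM in HFWT. The 5 NDKO livers held 0.651, 0.851, 0.751, 0.904 and 0.946 FPKM and in HFKO 9.20, 9.20, 10.7, 8.24 and 11.8 FPKM. The diets were far apart in both genotypes, and the spread within each diet was small beside the gap. The log2FC was 3.44 in WT (10.9-fold, SE 0.16, FDR 1.86e-12) and 3.43 in the null mice (10.8-fold, SE 0.16, FDR 3.18e-12). Myofibroblast markers moved with it: all 7 (the collagen, Timp1 and Acta2 list) were called higher in both genotypes, beside 44.1% (WT) and 41.9% (null mice) of all genes tested. Of these 7, Timp1 and Lox passed the filter only through their CDAHFD livers. The summed levels of the 7 were 6.89 to 10.8 FPKM on the control diet and 109 to 269 FPKM on CDAHFD, and their part in the rise was not tested.

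Fstl3 encodes a secreted protein that binds and blocks activins (ENSMUSG00000020325.10, chromosome 10, 79777272 to 79782630, plus strand, GRCm38). In NDWT it had 1, 1, 1, 0 and 1 fragments in the 5 livers, that is 0.0180, 0.0250, 0.0230, 0 and 0.0210 FPKM. The NDKO livers gave 0.238, 0.0540, 0.0870, 0 and 0.0610 FPKM, with NDKO mouse 1 holding 12 of the 22 fragments. On CDAHFD it was 1.10, 1.17, 0.585, 0.738 and 0.521 FPKM in HFWT and 0.797, 0.811, 1.21, 0.848 and 0.816 FPKM in HFKO, above every control diet liver. The log2FC was 2.92 in WT (SE 0.28, FDR 2.21e-08) and 2.51 in the null mice (SE 0.28, FDR 1.97e-07), both set in part by the pseudocount. Summed fragments, scaled by library totals, gave a ratio of 47.5 in WT (95% interval 18.3 to 176) and 9.73 in the null mice (6.26 to 15.9), covering counting error only. Genes on the opposite strand overlap Fstl3 (Prss57) and Fstl1 (Gm15724), each with at most 3 fragments in any liver.

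Fst encodes follistatin, the activin-binding protein that gives the family its name (ENSMUSG00000021765.7, chromosome 13, 114452262 to 114458730, minus strand, GRCm38). It was 0.729 to 1.97 FPKM in NDWT (median 1.62), 1.02 to 2.38 in HFWT (1.91) and 1.05 to 2.44 in HFKO (1.97). In NDKO it was 1.47, 2.24, 0.915, 7.42 and 1.503 FPKM, and mouse 4 stood far above the other 19 livers. Fst was not called in any comparison, with a log2FC of 0.25 in WT (95% interval -0.60 to 1.11, FDR 0.590) and -0.27 in the null mice (-1.12 to 0.59, FDR 0.572). Both intervals reach past the log2FC threshold on either side, and without NDKO mouse 4 the value in the null mice was 0.19. Under quantile normalization it was called lower in the null mice (log2FC -1.06, FDR 0.0277).

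The make-up of the beta subunit transcripts shifted with the diet. As shares of the summed FPKM of the 4 beta subunit genes within a liver, which do not depend on scaling between libraries by a common factor, Inhbc and Inhbe together held at least 89.5% in every liver. The Inhba share was 2.06% ± 0.817 in NDWT and 5.30% ± 0.840 in HFWT, and 1.85% ± 0.527 in NDKO and 4.66% ± 0.463 in HFKO (SD, n = 5). Neither pair overlapped. The Inhbc share was 48.4% ± 5.55 in NDWT against 33.4% ± 3.74 in HFWT, and 56.0% ± 6.49 in NDKO against 41.5% ± 3.22 in HFKO, again without overlap. Each of these 4 differences had a two-sided exact permutation p = 0.00794, the smallest that 5 livers against 5 allow, and an adjusted p of 0.0254 over 16 exact tests. Within a genotype the Inhba and Inhbc tests are not separate, since the shares of a liver form a fixed whole. The summed FPKM was 166 ± 23.1 in NDWT and 92.7 ± 15.1 in HFWT. It was 102 ± 38.4 in NDKO and 86.3 ± 5.39 in HFKO (SD, n = 5). A share can thus grow where the sum falls. With limma, Inhba itself was not called in WT (log2FC 0.57) and rose in the null mice (1.17). Quantile normalization, which is not a common factor, took the Inhba difference in WT from 3.24 to 1.89 points and ended that call (adjusted exact p = 0.0544). With 4 livers against 5, where the smallest exact p is 0.0159, the Inhbc difference in the null mice lost its call without any one of the 5 HFKO mice (adjusted p 0.0508 to 0.0726). The Inhbb share, which was not tested, was 0.747% ± 0.301, 1.45% ± 0.797, 3.69% ± 0.511 and 3.87% ± 1.30 in NDWT, NDKO, HFWT and HFKO.

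**Figure D3:**
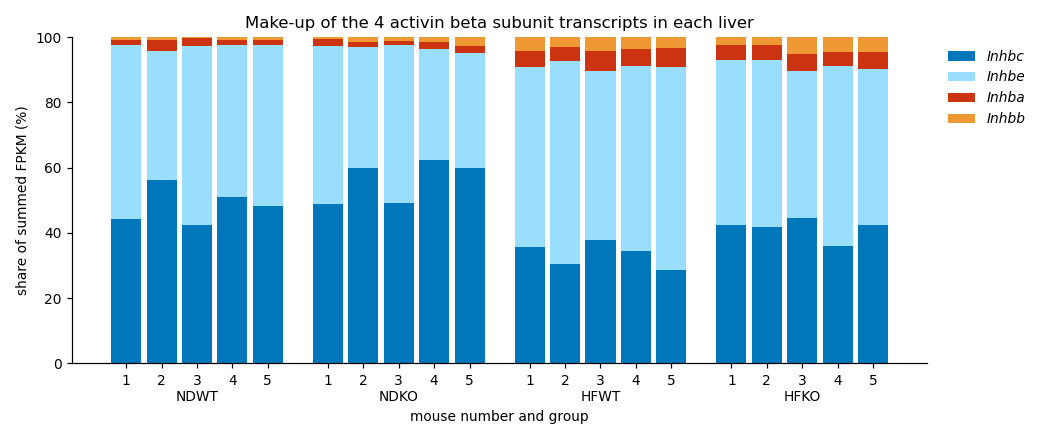
Share (%, y axis) of the summed FPKM of Inhba, Inhbb, Inhbc and Inhbe held by each gene in every liver (x axis, mouse number within group). The dark Inhbc block shrinks and the Inhba and Inhbb blocks at the top grow from the control diet to CDAHFD, while Inhbc and Inhbe hold at least 89.5% in every liver.

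The Inhbe share was 48.8% ± 6.09 in NDWT and 57.6% ± 4.54 in HFWT, and 40.7% ± 7.21 in NDKO and 50.02% ± 3.78 in HFKO (SD, n = 5). These differences did not pass correction (exact permutation p = 0.0317 and 0.0635, adjusted 0.0635 and 0.102). A ratio of antagonist to ligand subunit transcripts mostly sets Fst and Fstl3 against Inhbc and Inhbe, which held at least 89.5% of the beta subunit sum. Summed Fst and Fstl3 was 1.53 ± 0.514 FPKM in NDWT and 2.61 ± 0.434 in HFWT, while the beta subunit sum was 166 ± 23.1 and 92.7 ± 15.1. A ratio to Inhba and Inhbb alone was not taken. Fst was not called in WT (log2FC 0.25), and Fstl3 held 4 fragments in NDWT and passed the filter only through its CDAHFD livers. Inhbc and Inhbe were already called lower in WT. The ratio in WT thus restates these values and is no separate result. The log2 ratio of summed Fst and Fstl3 to summed beta subunit FPKM was -6.83 ± 0.455 in NDWT and -5.15 ± 0.347 in HFWT (SD, n = 5), without overlap (exact permutation p = 0.00794, adjusted 0.0254). Quantile normalization took this difference from 1.68 to 0.81 and ended the call (adjusted exact p = 0.0564). The ratio was -5.49 ± 1.40 in NDKO and -5.05 ± 0.413 in HFKO, with a range of -7.22 to -3.33 in NDKO (exact permutation p = 0.532, adjusted 0.608), and quantile normalization turned the difference of HFKO from NDKO to -0.22. Between genotypes on the control diet the ratio was not shown to differ (exact permutation p = 0.0556, adjusted 0.0988). It did without NDKO mouse 3 (1.77 higher in NDKO, adjusted exact p = 0.0212). Without NDKO mouse 4, the mouse with the ratio of -3.33 and with Fst at 7.42 FPKM, the difference was 0.79 and was not called.

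Between genotypes on the control diet, Inhba and Inhbe were called lower in livers labelled TSP-1 null, and no member was called higher. Over all genes tested, 3.03% were called lower and 1.74% higher (440 and 253 genes, against 328 and 349 under median of ratios scaling and 281 and 270 under quantile normalization). The members called were Inhba and Inhbe under each of these scalings. Cell markers moved in the same comparison. Of 7 hepatocyte markers 1 was called higher in NDKO (Cps1, log2FC 1.10, limma FDR 0.000949). Under median of ratios scaling 3 were, and under quantile normalization 1 was. Of 7 myofibroblast markers 1 was called lower (Acta2, 0.679 ± 0.0408 FPKM in NDWT and 0.300 ± 0.217 in NDKO, SD, n = 5, limma FDR 0.0155), and 2 were, with Timp1, under both other scalings. By voom 0 of the 7 were called. Timp1 lay near the floor, at 0.146 ± 0.0793 FPKM in NDWT and 0.0438 ± 0.0604 in NDKO, and passed the filter only through its CDAHFD livers. The part of these cell markers in the members' differences was not tested. Inhba fell by 0.86 on the log2 scale (SE 0.19, FDR 0.00612), from 3.43 ± 1.45 FPKM in NDWT to 1.74 ± 0.242 in NDKO (SD, n = 5). Every NDKO liver lay below every NDWT liver, with 2.05 against 2.12 FPKM at the nearest, as did 9.03% of all genes tested without overlap in either direction. Inhbe fell by 1.03 on the log2 scale (SE 0.24, FDR 0.00817), from 81.3 ± 18.1 to 42.6 ± 20.2 FPKM, with NDKO mouse 3 inside the NDWT range. Both calls were lost when only these 2 groups entered the fit (FDR 0.0547 for Inhba and 0.0575 for Inhbe). These differences share their NDWT livers with the diet comparison in WT.

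Inhbc, the neighbour of Inhbe, had a log2FC of -0.56 in the same comparison (SE 0.17, FDR 0.0409), short of the log2FC threshold, and was called without NDWT mouse 5 (-0.61), NDKO mouse 2 (-0.71) or NDKO mouse 3 (-0.67). Fstl3 had a log2FC of 0.57 (95% interval -0.023 to 1.16, FDR 0.202), and its 22 fragments in NDKO against 4 in NDWT gave a ratio of 5.31 after scaling by library totals (1.80 to 21.2, counting error only). Inha, Inhbb, Fst and Fstl1 had log2FC of 0.10, 0.14, 0.48 and -0.11 with FDR from 0.489 to 0.896.

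Between genotypes on CDAHFD, limma called none of the 8 genes, and none had an unadjusted p under 0.05, by voom also 0 called. Of all genes tested, 0.330% were called lower and 0.165% higher (48 and 24 genes, against 27 and 35 under median of ratios scaling and 36 and 56 under quantile normalization). The estimates ran from -0.41 (Inha, 95% interval -1.14 to 0.33) to 0.23 (Inhbc, -0.14 to 0.59), and the interval reached past the log2FC threshold for every member but Fstl1. Inside the beta subunit pool, the Inhbc share was 8.09 percentage points higher in HFKO than in HFWT (exact permutation p = 0.0159, adjusted 0.0423), with ranges of 36.0% to 44.6% and 28.7% to 37.7% that overlapped, and it lost this call when most single livers of either group were left out. The difference of HFKO from HFWT in the Inhbe share was -7.62 points (exact permutation p = 0.0238, adjusted 0.0544). In the test of whether the genotype difference depended on diet, limma and voom called 0 of the 8 genes, beside 0.337% of all genes higher and 0.310% lower, and 3 had an unadjusted p under 0.05: Inhbc (interaction log2FC 0.78, SE 0.25, FDR 0.132), Inhba (0.60, SE 0.27, FDR 0.298) and Inhbe (0.74, SE 0.34, FDR 0.308). Without NDKO mouse 2 the Inhbc value was 0.93 (FDR 0.0371), and no other single mouse left out gave a call.

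Of 9 receptor and co-receptor genes, 6 were tested. With the deposited scaling 4 rose on CDAHFD in both genotypes, beside 44.1% (WT) and 41.9% (null mice) of all genes tested: the decoy receptor gene Bambi (log2FC 1.76 in WT, 1.46 in the null mice), the type I receptor genes Acvr1b (0.85 and 0.94) and Acvr1 (0.91 and 0.87), and the inhibin co-receptor gene Tgfbr3 (0.74 and 0.71), with limma FDR of 0.000818 or less. The list median was 0.79 in each genotype, beside 0.53 and 0.50 over all genes tested. Under median of ratios scaling Bambi alone was called higher (1.26 in WT, 1.00 in the null mice), and the list median was 0.27 and 0.29. The other 3 lay between 0.21 and 0.43 there. Under quantile normalization 1 of the 6 was called higher (Bambi) and 2 lower in WT, and 0 higher and 2 lower in the null mice. The 2 type II receptor genes Acvr2a and Acvr2b, named after their values were seen, lay at -0.14 and 0.062 in WT and were not called, nor were they in the null mice (0.067 and 0.016). Acvr2a was called lower in WT under median of ratios scaling (-0.66) and both were under quantile normalization in WT (-0.85 and -0.81) and in the null mice (-0.63 and -0.75). Acvr1c, Igsf1 and Tdgf1 did not pass the filter, with group means of at most 0.198 FPKM. Neither comparison of genotypes called a receptor gene. On the control diet 1 of the 6 had an FDR under 0.05 with a log2FC short of the threshold. On CDAHFD 1 had an unadjusted p under 0.05, and 0 had an FDR under 0.05.

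**Figure D4:**
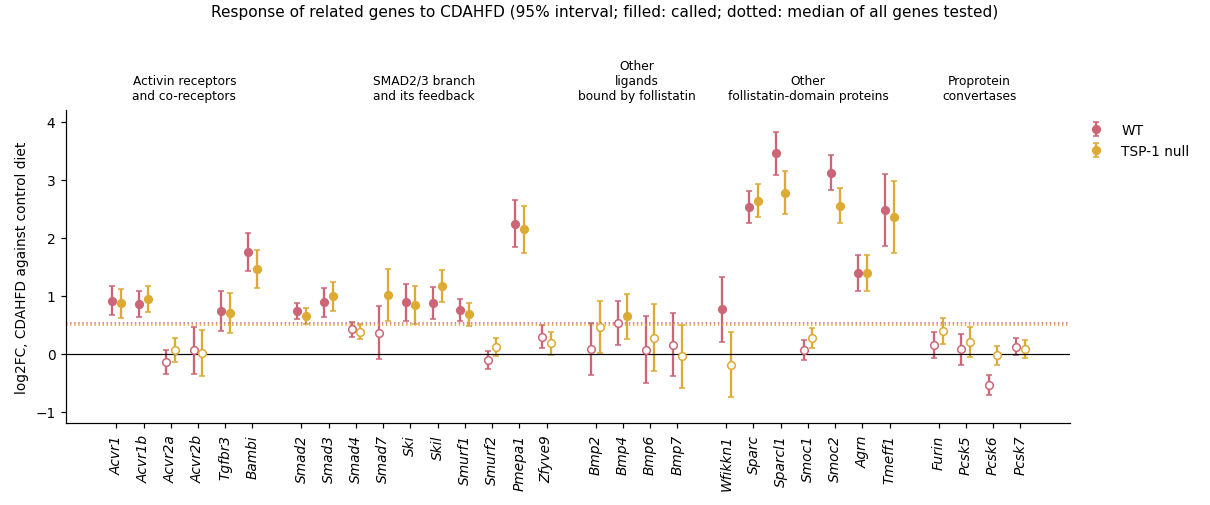
log2FC of CDAHFD against control diet (y axis, log2(FPKM + 0.1) scale, 95% intervals from limma) for the tested genes of 5 related lists (x axis), red in WT and yellow in TSP-1 null. Filled points were called, dotted lines are the medians of all genes tested, and the follistatin-domain list holds the highest values, up to 3.46 for Sparcl1 in WT.

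Of 11 genes of the SMAD2/3 branch, 10 were tested, 6 rose in WT and 7 in the null mice and none fell with the deposited scaling, beside the same 44.1% and 41.9% of all genes. Under median of ratios scaling 1 rose and 1 fell in WT, and 2 rose in the null mice, with list medians of 0.21 and 0.25, and under quantile normalization 1 rose and 1 fell in WT and 1 rose in the null mice. The highest was Pmepa1, a TGF-β-induced feedback inhibitor, with a log2FC of 2.24 in WT and 2.15 in null mice, and it was called under each scaling. The receptor-activated SMAD genes Smad2 (0.74 and 0.65) and Smad3 (0.89 and 0.99) rose in both, as did the ubiquitin ligase gene Smurf1 (0.75 and 0.68) and the corepressor gene Skil (0.88 and 1.17), all with the deposited scaling. The list medians there were 0.75 and 0.76. Between genotypes on the control diet, only Smad7, the inhibitory SMAD, was called in this list, at 5.77 ± 1.39 FPKM in NDWT and 3.45 ± 1.17 in NDKO (SD, n = 5, log2FC -0.76, FDR 0.0264). On CDAHFD none was called, and 1 had an unadjusted p under 0.05.

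Among other ligands that follistatin can bind, 4 of 6 genes were tested, none was called in WT (1 with an unadjusted p under 0.05, and 1 by voom), and Bmp4 rose in the null mice (log2FC 0.65, FDR 0.00383), where median of ratios scaling gave 0.16 (FDR 0.463). Of 14 other genes for proteins with a follistatin domain, 7 were tested, and 6 rose in WT and 5 in the null mice, beside 44.1% and 41.9% of all genes tested. The list medians were 2.48 and 2.36, beside 0.53 and 0.50 over all genes tested. Under median of ratios scaling 5 rose in each genotype (medians 1.99 and 2.04), beside 3351 and 3283 of all 14524 genes. Under quantile normalization 5 rose in each, and 1 fell in the null mice. Of these 7, Tmeff1 and Wfikkn1 passed the filter only through their CDAHFD livers. Those with the lowest FDR in WT were the matricellular genes Smoc2 (3.12 in WT, 2.55 in the null mice), Sparcl1 (3.46 and 2.78) and Sparc (2.53 and 2.64) and the basement membrane proteoglycan gene Agrn (1.40 in each). Tmeff1, which encodes a transmembrane protein and is named after its values were seen, had a larger log2FC than Agrn (2.48 and 2.36) with a higher FDR (3.38e-07 and 7.35e-07). Smoc2 was also higher in livers labelled TSP-1 null on the control diet, at 2.76 ± 0.477 FPKM against 1.76 ± 0.368 (SD, n = 5, log2FC 0.63, FDR 0.00743). The 4 genes of the proprotein convertases, which cut activin precursors, were not called in any comparison by limma or voom, with 1 at an unadjusted p under 0.05 in each of the 4 comparisons. These were Pcsk6 and Furin, named after their values were seen. Pcsk6 was 34.9 ± 3.45 FPKM in NDWT and 24.0 ± 1.95 in HFWT (SD, n = 5, limma log2FC -0.53, FDR 6.95e-06), and lower by a log2FC of -0.52 in NDKO than in NDWT (FDR 0.000480), both just under the log2FC threshold. Under median of ratios scaling the WT difference in Pcsk6 was -1.07 and was called lower, and under quantile normalization Pcsk6 and Pcsk5 were. Furin had a log2FC of 0.40 between diets in the null mice (FDR 0.00242) and 0.39 between genotypes on CDAHFD (FDR 0.0833).

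Within groups, the genes whose deviations from the group mean ran most nearly with those of each member over the 20 libraries were described by Pearson r on log2(FPKM + 0.1), with no test. For Inhbc they were Iba57 (r = 0.907) and Usp10 (0.862), for Inhbe Mast1 (0.843) and G0s2 (0.827), for Inhba 2810474O19Rik (0.884) and A430104N18Rik (0.835), and for Inhbb Gm10071 (0.855) and Suds3 (0.810). For Inha they were Cpne2 (0.847) and A230083G16Rik (0.763), for Fstl1 Lamc1 (0.872) and Matn2 (0.838), for Fstl3 Zyx (0.847) and Cachd1 (0.830), and for Fst Zfp281 (0.806) and 3110043O21Rik (0.790). These r are the highest among all genes tested, and without the 2 libraries farthest from the group mean of the member they were 0.564 to 0.846. Inhbc and Inhbe, the neighbours on chromosome 10, had r = 0.626 with each other, the highest among pairs of members. The 20 points are libraries, each with its own depth, which enters both genes of a pair.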

How the data were processed

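Livers of 20 male mice, 5 in each of 4 groups, were profiled by poly(A) RNA-seq, and 1 library per mouse was used. The deposited values are FPKM, which the authors made with QuickRNASeq, and per the labels with STAR 2.5.2, featureCounts and Subread 1.5.1, from fragments per gene with no further scaling between libraries. The processing notes name the human build GRCh38, whereas the coordinates in the table are those of GRCm38: of 38924 gene identifiers 37607 are in GENCODE M21, and 99.82% of these overlap the gene there. The strand setting of the counting is not given in the sources used here. Groups came from the sample labels, and the labels give no batch.

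From the deposited FPKM, genes above 0.5 FPKM in at least 5 libraries were kept (14524) and log2(FPKM + 0.1) was fitted for all 20 libraries with limma 3.58.1 in R 4.3.3 (a mean per group, eBayes with trend, two-sided). A gene was called at a Benjamini-Hochberg FDR under 0.05 over all genes tested with an absolute log2FC above 0.58. Fold changes on this scale understate those of low genes. Shares and ratios within a liver were compared by two-sided exact permutation tests with 5 mice a group, adjusted over 16 tests. Whole fragments were recovered from FPKM, gene length and library total (within 0.1 of a whole number) for an alternative with voom and for ratios of summed fragments with 95% exact intervals, which cover counting error only. Alternatives were pseudocounts of 0.01 and 1, no filter or 1 FPKM, median of ratios and quantile scaling, no fold threshold, only the groups compared, no trend, a replicate block and each liver left out. The limma steps were tested on simulated data. Promoter windows came from RefSeq (GRCm38.p6), and Python 3.11.15, numpy 2.4.6, pandas 2.3.3, scipy 1.17.1 and matplotlib 3.10.9 were used.

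The members, gene lists and motifs were chosen with earlier results of these data known. All 8 members were named throughout, of each other list at most the 4 called genes with the lowest FDR in a comparison, and for each member the 2 genes most like it within groups. The macrophage marker Adgre1 is listed under its older symbol Emr1.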

Additional observations from a re-analysis of the deposited data

Results flagged for a closer look

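Of 32 sets of 5 livers (8 genes in 4 groups), 3 held a liver flagged by Dixon's test, while chance flags about 1 set in 20. The test divides the gap to the nearest neighbour by the range of the 5 livers, with a critical value of 0.71. Fst stood at 7.42 FPKM in NDKO mouse 4, with 277 fragments, against 0.915 to 2.24 FPKM in the other 4 NDKO mice. Fstl3 was 0 FPKM in NDWT mouse 4 and 0.018 to 0.025 FPKM in the other 4 NDWT mice, which is 0 fragments beside 1 in each of the others. Fstl3 was 1.21 FPKM in HFKO mouse 3, above the 0.797 to 0.848 FPKM of the other 4 HFKO mice.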

How the results depend on the processing

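Of the member log2FC values under settings other than a left-out liver, 401 kept their direction and side of the threshold, 14 changed sign, 5 gained a call and 7 lost one. The changes of sign were all in values that were not called: Inhba in WT between diets was -0.13 with quantile normalization. Fst in WT between diets was -0.26 with median of ratios scaling and -0.65 with quantile normalization. Inhbe in the null mice between diets was -0.38 and -0.045 under these scalings, and between genotypes on CDAHFD Inhbb was 0.013 and 0.048 and Fst 0.055 and 0.11. Inha between genotypes on the control diet was -0.26 with a pseudocount of 0.01 and -0.029 with voom. The interaction of Fstl1 was 0.016 with median of ratios scaling, 0.014 with quantile normalization and 0.0037 with voom. With only the 2 groups compared in the fit, 0 members were called between genotypes on the control diet, against 2 with all 20 libraries. Quantile normalization took the Inhba share in WT between diets to 1.89 points and the Inhbc share between genotypes on CDAHFD to 8.35 points, both no longer past the threshold. It took the log2 ratio of Fst and Fstl3 to beta subunits to 0.81 in WT (adjusted exact p 0.0564) and to -0.22 in the null mice. Without Inhbb in the sum, the Inhbe share differences passed the threshold in WT (10.7 points), in the null mice (10.8 points) and between genotypes on CDAHFD (-7.81 points). Except where the smaller number of samples or the different sum is the change itself, the cause was not tested.

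With each liver left out in turn, 758 member values were unchanged in direction and call, 26 changed sign, 8 gained a call and 8 lost one. The ranges of values whose sign changed were -0.040 to 0.37 (Inhbe) and -0.53 to 0.19 (Fst) in the null mice between diets. Between genotypes on the control diet they were -0.12 to 0.43 (Inha) and -0.17 to 0.49 (Inhbb), and on CDAHFD -0.22 to 0.081 (Inhbb) and -0.21 to 0.12 (Fst). For the interaction they were -0.57 to 0.091 (Inhbb) and -0.15 to 0.085 (Fstl1), with 0 to 1 members called. Shares, in points, ran from -0.368 to 0.117 (Inhba, genotypes on the control diet), -16.4 to -13.0 (Inhbc, null mice between diets), 6.92 to 9.45 (Inhbc, genotypes on CDAHFD), 6.55 to 10.4 (Inhbe, WT between diets) and -9.08 to -6.40 (Inhbe, genotypes on CDAHFD). The log2 ratio ran from -0.043 to 0.25 between genotypes on CDAHFD and from 0.79 to 1.77 on the control diet.

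The mouse numbers recur in each group. Deviations of same-numbered libraries from their group means correlated at r = -0.133 to 0.0812 over 30 pairs, with 0 pairs over 0.1, so the numbers were taken as names. A fit with the replicate block gave -0.60 for Inhbe in WT between diets (FDR 0.0376) and changed no call of a member. Depth limits Fstl3 and Inha on the control diet, which rest on few fragments. The labels give no batch, and nothing states that the 5 mice of a group were housed or processed apart, so p-values measure the spread between these samples.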

Other observations

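The integrated stress response is the ATF4-driven program that answers amino acid shortage and endoplasmic reticulum stress, and Inhbe is among its known targets. Of 14 other genes of this program, 9 were called higher on CDAHFD in WT, and 9 higher and 1 lower in the null mice, beside 44.1% and 41.9% of all genes tested called higher. With median of ratios scaling it was 8 higher and 1 lower in each. Of the 9 called in each, 4 (Psat1, Phgdh, Slc7a11 and Nupr1) passed the filter only through their CDAHFD livers and so had to differ to be tested. The 4 with the lowest FDR in WT were Atf3, Nupr1, Slc7a11 and Psat1. Atf3, a stress-induced transcription factor, was 0.909 ± 0.274 FPKM in NDWT and 27.3 ± 4.11 in HFWT (SD, n = 5, log2FC 4.79, FDR 1.41e-12). Nupr1, a stress-induced nuclear protein gene, was 0.319 ± 0.0718 and 4.14 ± 1.02 FPKM (log2FC 3.32). Slc7a11, the cystine transporter gene, was listed at no more than 0.015 FPKM in any control diet liver, and in CDAHFD livers it was 0.270 to 0.739 FPKM, and Psat1, a serine synthesis enzyme gene, went from 0.0952 ± 0.0515 to 1.26 ± 0.215 FPKM (log2FC 2.83). Fgf21, a liver hormone of this program, was not called (log2FC 0.34 in WT and 0.43 in null mice, FDR 0.431 and 0.329).

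Between genotypes on the control diet, where Inhbe was lower in the null mice, 3 of the 14 were called lower (Gdf15, Ddit3 and Atf3). Of the rest, 1 was called higher (Atf5) and 10 were not called. The list median log2FC was 0.020, beside -0.066 over all genes tested, of which 3.03% were called lower and 1.74% higher. Between diets in WT, where 9 of the 14 were called higher, Inhbe was called lower. A link of these genes to Inhbe was not tested. Gdf15, a stress-induced cytokine gene, was 6.30 ± 2.45 FPKM in NDWT and 1.76 ± 1.10 in NDKO (SD, n = 5, log2FC -1.87, limma FDR 0.00234). Ddit3, a pro-apoptotic factor of the same program, had a log2FC of -0.79 (FDR 0.00602), Atf3 one of -0.84 (FDR 0.0172) and Atf5, abundant in liver, one of 0.61 (FDR 0.00696). These 4 calls held under both other scalings, while voom called 3 of the 14 genes in this comparison. On CDAHFD only Ddit3 of this list was called between genotypes (11.9 ± 2.66 FPKM in HFWT and 6.37 ± 0.924 in HFKO, log2FC -0.87, FDR 0.0184).

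Marker lists of other liver cells are given beside the 44.1% (WT) and 41.9% (null mice) of all genes called higher. Called higher in WT and in the null mice were 7 and 6 of 8 stellate cell markers, 5 and 5 of 5 cholangiocyte markers, 6 and 6 of 7 T and B cell markers, 1 and 2 of 6 endothelial markers and, of 4 neutrophil markers, the 3 tested. Of 6 macrophage markers 5 were higher and the Kupffer cell marker Clec4f was lower in each. The summed macrophage markers were 121 to 203 FPKM in the control diet livers and 541 to 1190 in the CDAHFD livers, and the summed cholangiocyte markers 12.4 to 18.0 and 181 to 488 FPKM. Spp1, named after its values were seen, made up most of the cholangiocyte sum (13.6 ± 1.27 FPKM in NDWT). The other 4 had HFWT means of 1.26 to 15.0 FPKM, beside a median sum of 473 FPKM, so the sum mainly follows that 1 gene. With median of ratios scaling the stellate counts were 4 and 3, with 1 lower in each, and the endothelial counts 0 and 1, with 2 lower in WT. The T and B cell counts were 5 and 4 with median of ratios scaling and 3 and 1 with quantile normalization. Among those called higher, 4 T and B cell, 2 cholangiocyte, 2 myofibroblast and 1 macrophage markers passed the filter only through their CDAHFD livers. The 4 pancreatic acinar genes summed to at most 0.561 FPKM in any liver, and none passed the filter. Their part in the members' differences was not tested.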
